A study of Mus musculus with 73 samples.

Results

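The *Lefty1* promoter library held 16036 of the 110180 enhancer-enhancer-promoter combinations of the series. Its members were all combinations whose library entry names the *Lefty1* promoter, and no measured value was used to choose them. *Lefty1* encodes a secreted member of the TGF-beta superfamily that inhibits Nodal signalling outside the cell. The gene is itself induced by Nodal through Smad proteins with FOXH1, so that it acts as a feedback inhibitor, and in mouse embryonic stem cells (mESCs) it also responds to the pluripotency factors Oct4, Sox2 and Klf4. A distal enhancer raises transcription from a promoter by binding such factors, and a gene like *Lefty1* lies among several of them.

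The library was a massively parallel reporter assay, in which many plasmids are transfected together and the transcript of each is read from a random barcode. Each plasmid held the *Lefty1* promoter, the barcoded reporter and, downstream of it, a pair of fragments in position 1 and position 2, each in plus or minus orientation. Cells were male mESCs of the established line E14TG2a grown in 2i+LIF, which received no other treatment, and they were nucleofected with the library and collected after 24 hours. The 3 biological replicates were transfected on different days, and the cDNA of each was sequenced in 2 runs beside 1 preparation of plasmid DNA (pDNA), also sequenced in 2 runs. The same cells and protocol served all 8 promoter libraries. A nucleofected plasmid carries the fragments next to the promoter and outside the chromosome, so distances in the genome are not those of the assay.

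Combinations fell into 3 types. There were 412 control-control (CC) combinations of random or scrambled sequences, 5840 enhancer-control (EC) combinations and 9784 enhancer-enhancer (EE) combinations. The activity of a combination is the ratio of its normalised barcode counts in cDNA over pDNA, averaged over at least 5 barcodes. The barcode numbers and counts behind an activity are not in the table, so the depth is unknown and no counting error was calculated. No replicate was at 0 in 378 of the CC, 5805 of the EC and 9781 of the EE combinations. Among CC combinations, 5 of 412 (1.21%) had their fragments in opposite orientations, against 49.6% of EC and 49.9% of EE combinations. Within fragment pairs measured both ways, EE combinations of the same and of opposite orientation differed by a median of 0.00 log2 units (n = 2700 pairs, exact sign-flip permutation test over 3 replicates, two-sided, p = 0.25, the smallest that 3 replicates allow).

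The intervals of the fragments given here span 450 bp in mm10, and the assayed PCR products were somewhat shorter, since the primers were placed within both ends. The primers below are those of the *Lefty1* promoter fragment, of the 3 strongest enhancers with this promoter, of the weakest and of the strongest enhancer of the *Lefty1* locus itself. They are the designed oligonucleotides of the study, printed 5′ to 3′ in lower case with no base marked. The promoter fragment lies at chr1:180934602-180935051 and overlaps the start of *Lefty1*, which runs from 180935022 to 180938401 in the RefSeq annotation of GRCm38. The enhancer fragments lie at chr17:35503887-35504336 (Pou5f1_E081), chr8:72316077-72316526 (Klf2_E058), chr3:34757763-34758212 (Sox2_E180), chr14:48654527-48654976 (Otx2_E110) and chr1:180888586-180889035 (Lefty1_E085).
Lefty1 promoter, forward: tggacaagactacaggtgca
Lefty1 promoter, reverse: ttatagctggtcctggggtg
Pou5f1_E081, forward: attgaatacagacaggactgctggg
Pou5f1_E081, reverse: atgaatcttccgtttcctccactctg
Klf2_E058, forward: cagggccataggttcagacaaag
Klf2_E058, reverse: aaggatgtttcaaactaagcctgacag
Sox2_E180, forward: tttaagtttgccttgtgagctcagg
Sox2_E180, reverse: cggtattaaagtctccttcacaagacc
Otx2_E110, forward: gtcaaggaccaatcgttaagcactttc
Otx2_E110, reverse: agaagcaagttctgggatggagg
Lefty1_E085, forward: cactcagaacattcgcagcatagaag
Lefty1_E085, reverse: gtcaatctcccagagtcgatcttcc

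The baseline of the *Lefty1* library, the median activity over CC combinations above 0, was 0.0922, 0.0874 and 0.0837 in replicates 1 to 3 (0.0878 ± 0.0043, SD, n = 3). On the log2 scale the baseline was -3.51 ± 0.07 (SD, n = 3), the lowest of the 8 libraries, the next being *Tbx3* at -3.09 ± 0.30 (SD, n = 3). Since counts were divided by the total of each library, activities are relative within a library. The median log2 activity of EE combinations lay between -0.21 (*Lefty1*) and 0.18 (*Fgf5*) in all libraries except *Sox2* (0.84), so that a baseline is set against the rest of its own library. The paper takes such baselines as the activity of the promoter. Here their order is not read as a measure of promoter strength, which was not tested. Unless stated otherwise, values that follow are boost indices, the log2 ratio of an activity over the baseline of the same replicate. Single CC combinations scattered around this baseline with an SD of 0.87 log2 units, and 5% of them lay above 1.52.

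The control fragments differed among themselves. Over the CC combinations that hold it, RandomE5 had a median boost index of 0.62, 0.41 and 0.47 in replicates 1 to 3, and E46-shuffled2 had 0.42, 0.66 and 0.16. E95-shuffled1 had -0.46, -0.73 and -0.53, and RandomE3 had -0.36, -0.49 and -0.40. Each of these 4 controls kept its side of the baseline in every replicate. By limma, 0 of 20 controls passed an adjusted p of 0.01, as did 0% of the 156 control-promoter pairs of all libraries (lowest adjusted p with *Lefty1* 0.0230, 10 controls at an unadjusted p under 0.05). Measured in EC combinations relative to the median of the same enhancer and position, 7 controls were called higher and 7 lower, from -0.56 for E95-shuffled1 to 0.53 for RandomE5. Single enhancers with a boost index below 0.5 thus lie within the range of the controls, whose highest median was 0.50 in CC combinations. Pou5f1_E077 and Pou5f1_E078, at 0.53 each, lay just above the 0.50 of RandomE5 in CC combinations. The 0.53 of RandomE5 in EC combinations has another reference, the median of the same enhancer and position. The first 100 bases of the highest and of the lowest control show the kind of designed sequence that set this range, printed 5′ to 3′ with no base marked.
RandomE5: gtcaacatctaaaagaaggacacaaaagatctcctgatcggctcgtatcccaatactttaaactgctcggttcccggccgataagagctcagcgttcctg
E95-shuffled1: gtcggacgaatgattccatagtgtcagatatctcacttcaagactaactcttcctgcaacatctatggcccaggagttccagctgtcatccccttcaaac

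Enhancers raised the activity of the *Lefty1* promoter over a wide range. The median boost index of EC combinations was 1.60, 1.57 and 1.70 in replicates 1 to 3 (1.62 ± 0.07, SD, n = 3), and that of EE combinations 3.29, 3.24 and 3.38 (3.30 ± 0.07, SD, n = 3). The replicates differed by far less than the types did. Between the 5th and the 95th percentile, EE combinations reached from 0.98 to 5.23, and the highest averaged 6.11 (mean of the replicate maxima).

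**Figure D1:**
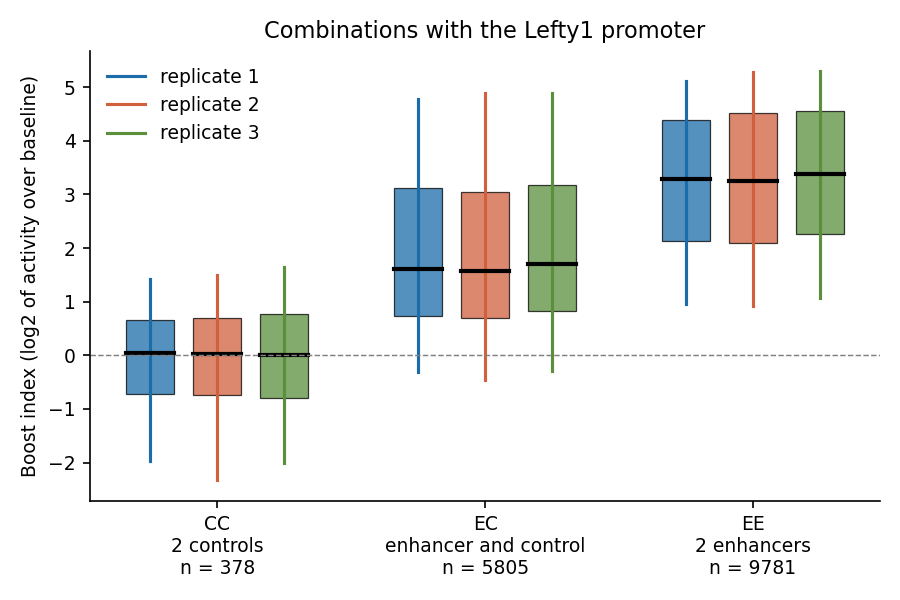
Boost index (log2 of activity over baseline) of CC, EC and EE combinations with the *Lefty1* promoter, with 1 box for each biological replicate. Boxes span the 25th to the 75th percentile, the black lines are medians and the thin lines reach from the 5th to the 95th percentile over 378 CC, 5805 EC and 9781 EE combinations. In each replicate the medians rise from about 0 (CC) over 1.57 to 1.70 (EC) to 3.24 to 3.38 (EE).

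Each combination was also tested on its own against the baseline. By limma at an adjusted p of 0.01, 9317 of 9781 EE combinations (95.3%), 3892 of 5805 EC combinations (67.0%) and 38 of 378 CC combinations (10.1%) were higher than the baseline, against 75.9% of all combinations of the 8 libraries. The share of CC combinations gives the rate at which controls alone pass. It rested on the replicates used, with 20, 8 and 34 CC combinations called without replicate 1, 2 and 3. No *Lefty1* combination was called lower, against 0.408% of all combinations, and 11 CC, 9 EC and 0 EE combinations were lower at an unadjusted p under 0.05. Without a trend of the variance with activity, limma called 45 EC and 3 EE combinations lower.

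A single-enhancer boost index, the log2 ratio of the median activity over the EC combinations of an enhancer, was measured for 58 enhancers over 1 to 160 EC combinations each (median 96). By limma, 53 of the 58 were higher than the controls at an adjusted p of 0.01 and 0 lower, against 82.3% higher and 1.11% lower of all 451 enhancer-promoter pairs. All 58 means were above 0, so that 0 were lower at an unadjusted p under 0.05 as well. The boost index was 4 or more for 8 enhancers, from 3 to 4 for 5, from 2 to 3 for 8, from 1 to 2 for 18, from 0.5 to 1 for 14 and below 0.5 for 5. The SD over replicates had a median of 0.11, and for 48 of 57 neighbours in this order the replicates overlapped.

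The strongest enhancer was Pou5f1_E081, 1 of 9 fragments around the gene of Oct4, with boost indices of 4.86, 5.00 and 5.01 in replicates 1 to 3. This corresponds to an activity 31.1-fold over the baseline (4.96 ± 0.08, SD, n = 3, 160 EC combinations, limma adjusted p = 3.61e-05). Klf2_E058, from the locus of the naive pluripotency factor gene *Klf2*, reached 4.69, 4.81 and 4.85. Sox2_E180, from downstream of *Sox2*, which encodes the partner of Oct4 on DNA, reached 4.58, 4.87 and 4.70. The replicates of Sox2_E180 overlapped those of both others, while those of Pou5f1_E081 and Klf2_E058 did not overlap. Nodal_E159 (4.58 ± 0.05), Lefty1_E085 (4.58 ± 0.09) and Nanog_E073 (4.52 ± 0.01; SD, n = 3 each) followed close together. For each of the 6, all EC combinations were called higher than the baseline, whatever the control beside them.

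The 5 enhancers not called were Pou5f1_E079 (0.25 ± 0.04), Nodal_E162 (0.25 ± 0.11), Lefty1_E087 (0.23 ± 0.04), Nodal_E157 (0.22 ± 0.20) and Otx2_E110 (0.17 ± 0.31; SD, n = 3 each). Otx2_E110 had boost indices of 0.39, -0.19 and 0.31 in replicates 1 to 3 over 100 EC combinations, of which 6 of 96 tested were called. It lay on both sides of the baseline. Pou5f1_E078, the weakest of the enhancers called, had 0.41, 0.52 and 0.65 (limma adjusted p = 0.00423), and it missed the threshold when any replicate was left out. With the *Lefty1* library fitted alone, Pou5f1_E079 (adjusted p = 0.00256) and Lefty1_E087 (adjusted p = 0.0033) were called by limma as well.

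**Figure D2:**
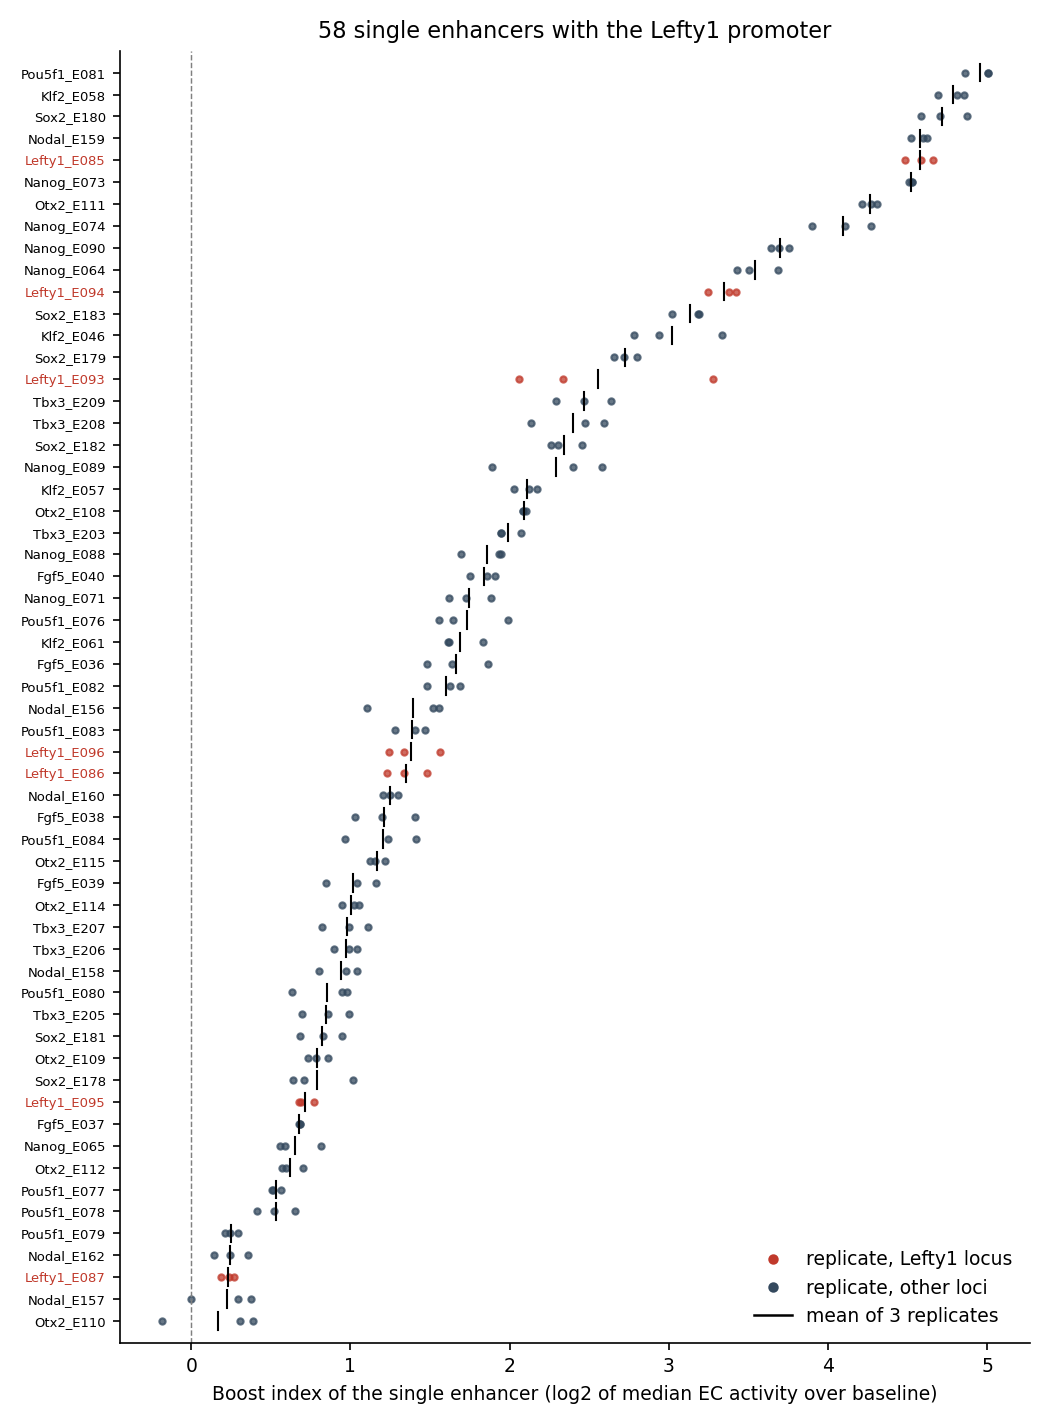
Boost index (log2) of the 58 single enhancers with the *Lefty1* promoter, ordered by their mean. Points are the 3 biological replicates, vertical bars their mean, and fragments of the *Lefty1* locus are drawn in red. The values run from 0.17 for Otx2_E110 to 4.96 for Pou5f1_E081, the Lefty1 fragments are spread over the whole range, and Lefty1_E093 has its replicate 1 value of 3.28 apart from 2.06 and 2.33.

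The *Lefty1* locus contributed 7 measured fragments, and their boost indices with their own promoter ranged from 0.23 to 4.58. Distances are from the gene start to the nearest end of a fragment, negative upstream. Lefty1_E085, at -45987 bp, had 4.66, 4.49 and 4.58 in replicates 1 to 3. Its neighbours Lefty1_E086, at -45427 bp, and Lefty1_E087, at -44778 bp, had 1.23, 1.34 and 1.48 and 0.19, 0.24 and 0.27, respectively. The strongest and the weakest fragment of the locus thus lie close together in the genome, and their replicates did not overlap. Lefty1_E094, at -918 bp (chr1:180933655-180934104), had 3.38, 3.42 and 3.25. Lefty1_E095, at chr1:180936711-180937160 within the gene body, had 0.77, 0.69 and 0.67, and it missed the threshold without replicate 2 (limma adjusted p = 0.0133). Lefty1_E096, at chr1:180945507-180945956 in the body of the neighbouring gene *Tmem63a*, had 1.24, 1.34 and 1.56. Lefty1_E093, Lefty1_E094 and Lefty1_E095 also overlap the annotated gene *Gm39715*. Lefty1_E092 occurred in 0 combinations.

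Lefty1_E093, at -9900 bp (chr1:180924673-180925122), had the largest spread over replicates of the 58 enhancers, with boost indices of 3.28, 2.06 and 2.33 (2.56 ± 0.64, SD, n = 3, limma adjusted p = 0.00087). Its replicate 1 exceeded the mean of the other replicates by 1.08 log2 units, and the next such difference among the 58 enhancers was 0.43. The same replicate was the highest for this fragment with all 8 promoters, by 0.09 with *Ap1m1* to 2.67 with *Fgf5*. EE combinations that hold Lefty1_E093 had medians of 3.90, 3.20 and 3.34, again highest in replicate 1. What sets this replicate apart was not tested.

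Fragments differed widely within most of the 9 loci. The median boost index was highest for the 8 fragments of *Nanog*, a homeobox gene of the pluripotency network, at 3.04, 2.66 and 3.04 in replicates 1 to 3 (2.91 ± 0.22, SD, n = 3), of which 8 of 8 were called higher. It was 2.56 ± 0.17 for the 4 *Klf2* and 2.53 ± 0.08 for the 6 *Sox2* fragments, all of which were called. The *Lefty1* fragments were in the middle of the order with a median of 1.38 ± 0.16 (6 of 7 called), near the 6 of *Tbx3* at 1.48 ± 0.04. *Tbx3* encodes a T-box factor of naive pluripotency. The median was 1.21 ± 0.13 for the 5 fragments of *Fgf5*, a growth factor gene that marks exit from the naive state, 1.21 ± 0.22 for the 9 of *Pou5f1* (8 called), 1.10 ± 0.10 for the 6 of *Nodal*, the gene of the ligand that Lefty1 inhibits (4 called), and 1.01 ± 0.06 for the 7 of *Otx2*, a homeobox gene of the primed state (6 called; SD, n = 3 throughout). Each of these loci except *Tbx3* and *Fgf5* held a fragment with a boost index of 4 or more.

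In EE combinations the order of the loci was similar at the top. Combinations that hold at least 1 *Nanog* fragment had a median boost index of 4.05, 4.19 and 4.21 in replicates 1 to 3. Those with a *Klf2* fragment had 3.91, 4.04 and 4.17, and those with a *Lefty1* fragment 3.73, 3.55 and 3.58. The values of the *Lefty1* fragments lay below those of *Klf2* in each replicate and near those of *Sox2* at 3.46, 3.49 and 3.62. Pairs of 2 *Lefty1* fragments had a median of 3.94 ± 0.06 (SD, n = 3, 135 combinations). Combinations of *Fgf5* with *Nodal* fragments were lowest at 2.02 ± 0.15 (SD, n = 3, 173 combinations), and those of *Klf2* with *Nanog* fragments highest at 4.45 ± 0.15 (SD, n = 3, 155 combinations). A combination of fragments from different loci counts under both.

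A pair of enhancers drove the promoter more than a single enhancer. The EE median exceeded the EC median by 1.69, 1.68 and 1.68 log2 units in replicates 1 to 3 (1.68 ± 0.01, SD, n = 3, exact sign-flip permutation test, two-sided, p = 0.25, the smallest that 3 replicates allow). Relative to the stronger enhancer of the pair, the median gain was 0.45, 0.47 and 0.51 (0.48 ± 0.03, SD, n = 3, exact sign-flip permutation test, p = 0.25) over 9771 EE combinations. Of these, 80.2% ± 1.13 (SD, n = 3) exceeded the stronger single enhancer. The differences were positive in 3 of 3 replicates, and the test cannot pass a threshold at this number.

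A pair of expectations was set against each EE combination, as far as its single enhancers were measured in the same position. The additive one sums the median EC activities of the enhancers and subtracts 1 baseline, so that the promoter alone is not counted again. These medians take both orientations of an enhancer together, so the deviation of a combination includes any orientation difference of its fragments. The multiplicative one takes their product and divides it by the baseline. The median absolute deviation from the additive expectation was 0.38, 0.38 and 0.39 log2 units, and from the multiplicative one 0.53, 0.53 and 0.58. The additive expectation was nearer in each replicate, by 0.16 ± 0.02 (SD, n = 3, exact sign-flip permutation test, two-sided, p = 0.25). Observed activities exceeded the additive expectation by a median of 0.23, 0.25 and 0.26 and fell short of the multiplicative one, with medians of -0.45, -0.42 and -0.52.

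How far pairs departed from additivity varied with the strength of both enhancers. Enhancers were called weak below a single boost index of 1 (19 enhancers), medium from 1 to 3 (26) and strong from 3 (13). Since these classes and the expectations use the same EC medians, their deviations are given as a description without a test. Pairs of weak enhancers had a median boost index of 1.29 ± 0.10 and exceeded the additive expectation by 0.22 ± 0.02, and pairs of a weak and a medium enhancer had 2.23 ± 0.07 and 0.27 ± 0.01. Pairs of medium enhancers reached 3.08 ± 0.07 and exceeded the expectation by 0.50, 0.50 and 0.53 in replicates 1 to 3, the most of the 6 classes. With a strong enhancer in the pair the excess was smaller, 0.10 ± 0.02 beside a weak and 0.23 ± 0.04 beside a medium enhancer. Pairs of strong enhancers reached 4.95 ± 0.16 and fell short, with deviations of -0.31, -0.14 and -0.19 (SD, n = 3 throughout). They did so in each replicate.

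**Figure D3:**
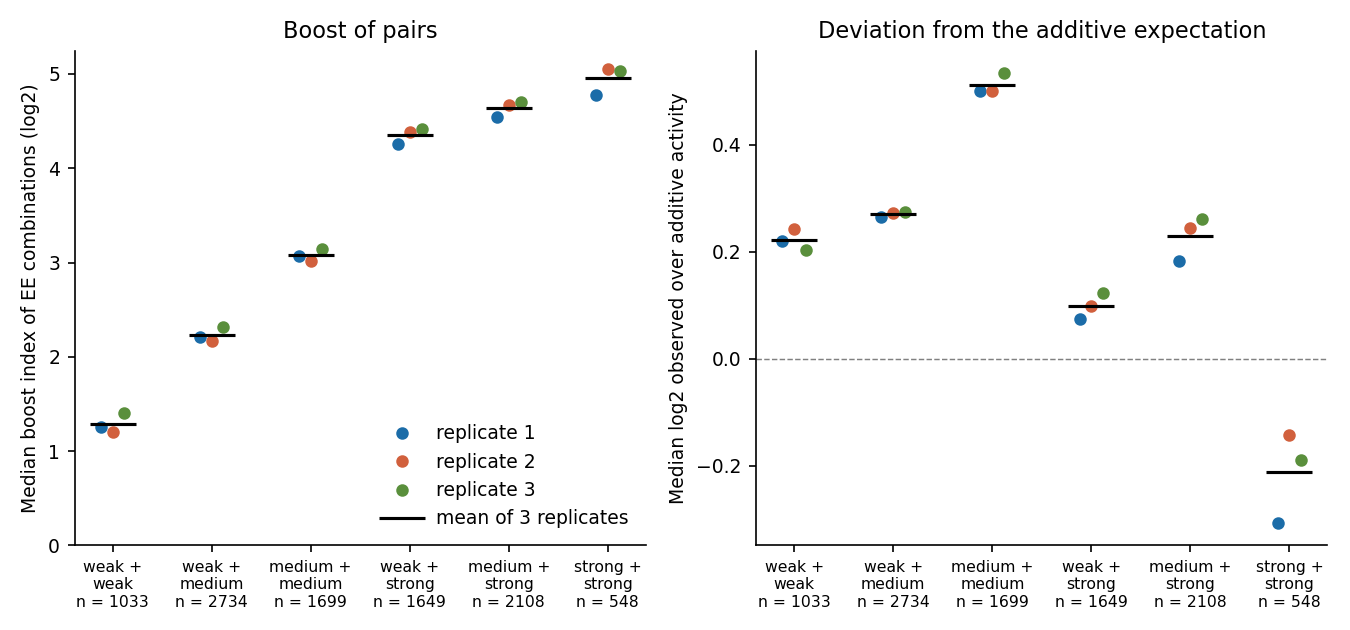
Median boost index (left, log2) and median log2 ratio of observed over additive activity (right) of EE combinations with the *Lefty1* promoter, by the class of both single enhancers (weak below 1, medium 1 to 3, strong 3 or more). Points are the 3 biological replicates, bars their mean, and n is the number of EE combinations. The boost index climbs from 1.29 to 4.95, while the deviation peaks at 0.51 for pairs of medium enhancers and is -0.21 for pairs of strong enhancers.

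Beside the strongest enhancers, those of 4 or more, the median boost index was higher with stronger partners up to 3 to 4, except at 2 to 3. Beside partners with a single boost index below 0.5, combinations of these 8 enhancers had medians of 4.46, 4.50 and 4.58 in replicates 1 to 3 (282 combinations). The median was 4.70 ± 0.07 beside partners of 0.5 to 1, 4.88 ± 0.09 beside those of 1 to 2, 4.80 ± 0.09 beside those of 2 to 3, 4.99 ± 0.15 beside those of 3 to 4 and 5.00 ± 0.20 beside those of 4 or more (SD, n = 3). Within replicates 1 to 3, the step from partners of 1 to 2 to partners of 3 to 4 was 0.04, 0.16 and 0.15, and that from partners of 3 to 4 to partners of 4 or more was -0.05, 0.06 and 0.03. The first step was positive in 3 of 3 replicates and the last changed sign between them. These medians share the same 8 enhancers and are given as a description.

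Tested one by one with limma at an adjusted p of 0.01, 1377 of 9771 EE combinations (14.1%) were above the additive expectation and 240 (2.46%) below, against 6.39% above and 2.96% below among all EE combinations of the 8 libraries. Without replicate 1, 2 or 3, limma called 0 in either direction (lowest adjusted p 0.0594, 0.0534 and 0.0161), with 3681, 3572 and 4068 above and 895, 922 and 1160 below at an unadjusted p under 0.05. With the *Lefty1* library fitted alone, limma called 2833 above and 617 below. Single combinations named below therefore carry the calls of all 3 replicates together. The test measures the spread over replicates, and not the scatter of the EC combinations behind an expectation.

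Taken over their partners, most enhancers exceeded additivity. By limma, 44 of 58 enhancers had a median log2 ratio of observed over additive activity above 0 at an adjusted p of 0.01 and 0 below, against 38.6% above and 9.31% below of all enhancer-promoter pairs. At an unadjusted p under 0.05, limma had 2 below. A combination of different fragments counts under both of its enhancers, and the median over all EE combinations was itself 0.24 ± 0.02 (SD, n = 3). The calls of the enhancers are thus not independent of each other. Tbx3_E203 departed most, with 0.62, 0.60 and 0.66 in replicates 1 to 3 over 429 EE combinations (0.63 ± 0.03, SD, n = 3, limma adjusted p = 0.000312). Pou5f1_E083 had 0.52, 0.53 and 0.55, and Nodal_E156 had 0.50, 0.58 and 0.48. All 3 are of medium strength alone, with boost indices of 1.99, 1.38 and 1.39. Of the fragments of the *Lefty1* locus, Lefty1_E086 (0.51), Lefty1_E094 (0.44), Lefty1_E095 (0.41), Lefty1_E096 (0.30) and Lefty1_E093 (0.15) were called above, and Lefty1_E085 (0.11) and Lefty1_E087 (-0.08) were not. Klf2_E058 lay lowest at -0.12 and was not called (limma adjusted p = 0.0102). Without replicate 1, 2 or 3 the number of enhancers called above was 29, 25 and 28.

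The highest fragment pair, averaged over its orientations, was Pou5f1_E081 in position 1 with Tbx3_E203 in position 2, with boost indices of 5.69, 5.87 and 5.91 in replicates 1 to 3. Additivity gave 4.99 for this pair, and 4 of its 4 combinations were called above it. Klf2_E058 with Tbx3_E203 had 5.71, 5.84 and 5.89 (3 of 4 combinations called above). These highest values thus join the strongest single enhancers to a medium one. Pou5f1_E081 with Lefty1_E094 followed at 5.72 ± 0.09, and Lefty1_E085 with Lefty1_E094, both from the *Lefty1* locus, at 5.71 ± 0.04 (SD, n = 3). For the latter, 2 of 4 combinations were called above an additive expectation of 5.08. Altogether 235 of 2942 fragment pairs averaged above 5, and 97 below 1.

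The lowest of the 2713 fragment pairs measured in at least 2 orientations each held an enhancer that was not called alone. Pou5f1_E082 with Otx2_E110 had 0.38, -0.74 and 0.78 in replicates 1 to 3 over 3 combinations that ranged from -1.48 to 1.52, a wide spread, while Pou5f1_E082 alone had 1.60. Nodal_E162 in position 1 had 0.14, 0.19 and 0.34 with Otx2_E112, 0.28 ± 0.18 with Nodal_E157 and 0.34 ± 0.08 with Lefty1_E087 (SD, n = 3). None of the combinations of these 4 pairs was called higher than the baseline by limma, and each of their 4 means lay above 0. By comparison, 95.3% of all EE combinations were called.

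In 61 fragment pairs every measured orientation was called above the additive expectation and in 13 every one below. Farthest above were 4 pairs with Nodal_E160 in position 1. With Fgf5_E037 in position 2 it exceeded additivity by 1.96, 1.86 and 2.43 log2 units in replicates 1 to 3, reaching a boost index of 4.51 where 2.42 was expected. The excess was 2.05 ± 0.28 with Pou5f1_E079, 1.96 ± 0.04 with Nanog_E088 and 1.83 ± 0.12 with Nodal_E156 (SD, n = 3, 2 combinations each). The expectation of all 4 pairs uses the same position 1 value of Nodal_E160, whose EC combinations varied widely over both positions, with the 5th percentile at -0.36 and the 95th at 4.24.

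Farthest below were pairs of Sox2_E180, Nanog_E074 and Pou5f1_E084. Sox2_E180 in position 1 with Nanog_E074 deviated from additivity by -1.45, -1.12 and -1.38 in replicates 1 to 3, with a boost index of 4.04 although Sox2_E180 alone had 4.72. In the reverse order the deviations were -1.28, -1.03 and -1.10. Both orders of this pair were below the stronger single enhancer in the average over replicates. Pou5f1_E084 in position 2 deviated by -1.19 ± 0.14 beside Sox2_E180 and by -1.18 ± 0.07 beside Nanog_E074 (SD, n = 3), where 2 of 2 and 4 of 4 combinations were called.

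Pairs from the same locus did not combine more strongly than pairs from different loci. Their median log2 ratio of observed over additive activity was 0.20, 0.22 and 0.24 in replicates 1 to 3 over 1002 combinations, against 0.23, 0.25 and 0.26 over 8769 combinations. The difference was -0.03 ± 0.00 (SD, n = 3, exact sign-flip permutation test, two-sided, p = 0.25). It was below 0 in 3 of 3 replicates, and it was -0.02 without pairs whose fragments are the same or overlap in the genome. The same fragment in both positions was measured in 4 combinations, of Pou5f1_E077, Pou5f1_E078, Sox2_E178 and Fgf5_E040. Their boost indices exceeded that of the single fragment in 1 of 4 (Pou5f1_E077), with a median gain of 0.38, -0.29 and -0.33 in replicates 1 to 3.

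Most enhancers had similar boost indices in both positions, with a median absolute difference of 0.20 log2 units over 54 enhancers (those with 5 or more EC combinations per position). By limma at an adjusted p of 0.01, 10 were higher in position 1 and 3 in position 2, against 9.35% and 6.24% of all enhancer-promoter pairs. Nodal_E160 had 2.25 ± 0.19 in position 1 and 0.81 ± 0.11 in position 2, a difference of 1.51, 1.71 and 1.11 in replicates 1 to 3. Its EC combinations were 30 minus and 1 plus in position 1 but 23 minus and 22 plus in position 2, and in minus orientation alone the difference was 1.22. Pou5f1_E084 differed by 0.94, 0.94 and 0.96 (limma adjusted p = 0.00363), and Klf2_E057 by 0.65, 0.63 and 0.79. Nodal_E162 had -0.08 ± 0.17 in position 1 and 0.52 ± 0.07 in position 2, a difference of -0.68, -0.64 and -0.48. It was the largest in favour of position 2, followed by Nodal_E158 at -0.49 ± 0.12 and Tbx3_E206 at -0.37 (SD, n = 3). Without replicate 1, 2 or 3, limma called 0, 7 and 0 enhancers. At an unadjusted p under 0.05 it then had 18, 16 and 16 higher in position 1 and 9, 10 and 10 in position 2.

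Since the orientations were not equally frequent in both positions, position was also compared within orientation and averaged over those measured in both positions. By limma, 10 of the 13 enhancers kept their call, 7 higher in position 1 and 3 in position 2, of 53 tested. Otx2_E112 (0.40, limma adjusted p = 0.0140), Fgf5_E040 (0.51, limma adjusted p = 0.0128) and Nodal_E156 (limma adjusted p = 0.164) did not pass. Nodal_E156, which had EC combinations only in minus orientation in position 1, fell from 0.56 to 0.10. Pou5f1_E084 differed by 2.16 in plus and -0.21 in minus orientation, so that its position difference was not the same in both.

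Orientation was tested in each position separately, in 96 tests of 55 enhancers with at least 5 EC combinations per orientation. By limma at an adjusted p of 0.01, 10 were higher in plus and 9 in minus orientation, against 10.9% and 8.09% of all tests. Sox2_E181 differed most, with boost indices in position 2 of -0.26 in plus and 1.48 in minus orientation, a difference of -1.26, -1.97 and -1.99 in replicates 1 to 3 (limma adjusted p = 0.00621). In position 1 the same fragment had 0.76 and 0.59. Fgf5_E036 differed by -0.94, -1.26 and -0.82 in position 2. Otx2_E112 and Nanog_E064 were higher in plus orientation in position 2, by 0.79 ± 0.07 and 0.76 ± 0.06 (SD, n = 3).

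Pou5f1_E084 was called in both positions with opposite signs. In position 1, its plus orientation exceeded its minus orientation by 1.19, 1.13 and 1.41 log2 units in replicates 1 to 3. In position 2 the difference was -0.85, -1.02 and -1.53. The fragment, within the body of *Pou5f1*, thus had 2.28 in plus orientation in position 1 and 0.12 in plus orientation in position 2. Nodal_E160 in position 1 could not be tested for orientation, since 30 of its 31 EC combinations were in minus orientation. In EE combinations with Nodal_E160 in position 1, the median was 3.78 ± 0.11 over 107 combinations in minus and 2.26 ± 0.09 over 42 in plus orientation (SD, n = 3). Without replicate 1, 2 or 3, limma called 0 of the 96 orientation tests, with 21, 23 and 28 higher in plus and 24, 22 and 26 in minus orientation at an unadjusted p under 0.05. With at least 10 EC combinations per orientation it called 36.

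EE combinations, which did not enter these tests, were compared between positions and orientations with the partner fragment and its orientation kept. Between positions, the orientation of the enhancer itself was kept as well. Every one of the 19 orientation differences called in EC combinations had the same sign in EE combinations in each replicate, and so did 13 of 13 position differences. Among those not called, 50 of 77 (64.9%) orientation and 24 of 41 (58.5%) position differences kept their sign. For Nodal_E160 the position difference was 0.29, 0.25 and 0.23 in replicates 1 to 3 over 114 matched EE combinations of either orientation. The EC difference of 1.44 did not keep orientation, and in minus orientation alone it was 1.22. Without matching of partners, EE medians in minus orientation were 3.78 ± 0.11 in position 1 and 2.55 ± 0.12 in position 2. In plus orientation they were 2.26 ± 0.09 and 2.03 ± 0.15 (SD, n = 3). For Sox2_E181 in position 2 the EE difference was -1.24, -1.35 and -1.43 over 87 matched combinations. For Pou5f1_E084 it was 0.73, 0.71 and 0.79 in position 1 and -0.31, -0.37 and -0.17 in position 2. For Sox2_E181 and Pou5f1_E084 the EE differences were smaller than those in EC combinations. The median absolute size was 0.63 in EC and 0.46 in EE combinations for called orientation differences, and 0.54 and 0.31 for called position differences. These differences were called on their EC values, so a smaller size in a second measurement is likely from that choice alone. The decrease therefore says nothing by itself about pairs. The EC position differences also pooled the orientations. Both comparisons share the transfections and the fragments.

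**Figure D4:**
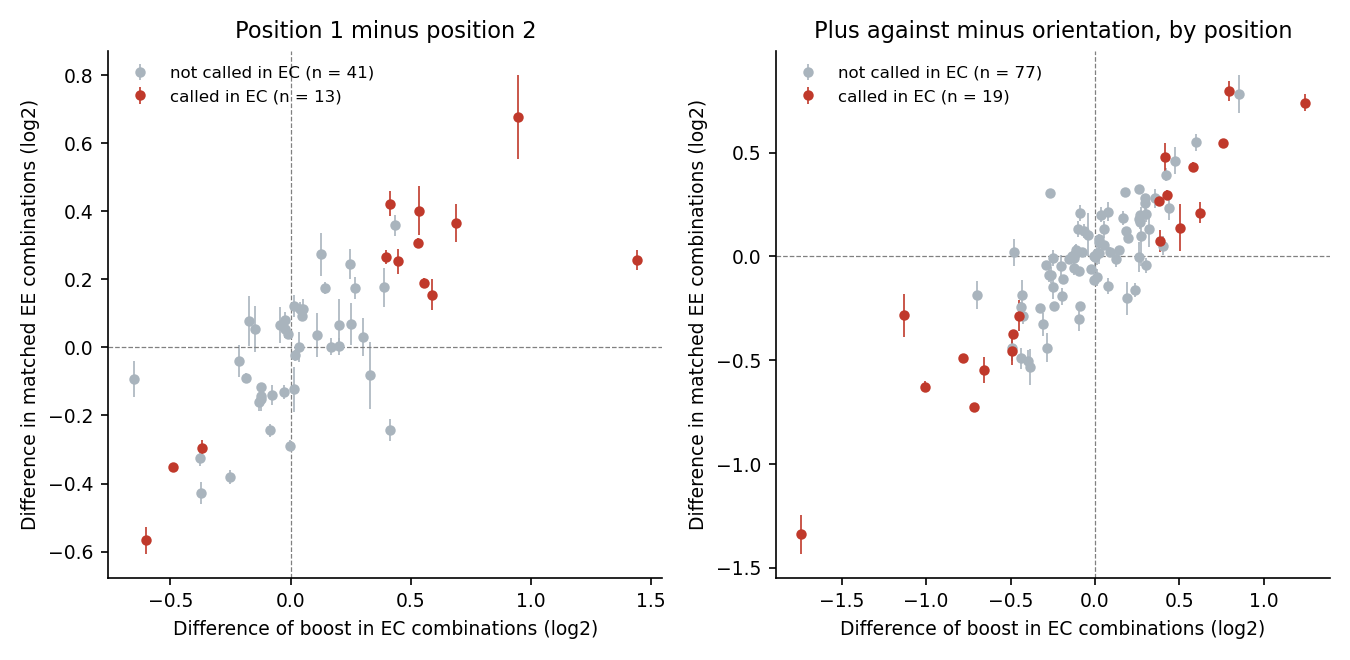
Differences in boost index between position 1 and position 2 (left) and between plus and minus orientation within a position (right), in EC combinations (horizontal, log2) and in EE combinations matched for the partner (vertical, log2, mean with SD over 3 replicates). Each point is an enhancer, or an enhancer in 1 position, with the *Lefty1* promoter, and red points were called in EC combinations by limma. All 13 and 19 red points have the same sign on both axes, with Sox2_E181 in position 2 at the lower left of the right panel (-1.74 and -1.34).

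Compared with the other libraries, *Lefty1* responded strongly to single enhancers. Of 50 enhancers measured with all 8 promoters, *Lefty1* gave the highest boost index for 18, the next highest for 24, the third highest for 7 and the sixth highest for 1. Relative to the mean of the other 7 promoters, 39 of 49 enhancers were higher with *Lefty1* (79.6%) and 0 lower (0%) by limma at an adjusted p of 0.01, and all 49 differences were above 0, with 0 lower at an unadjusted p under 0.05. Sox2_E180 differed by 2.18 (4.72 against 2.54), Lefty1_E085 by 2.07 (4.58 against 2.51) and Nodal_E159 by 2.03 (4.58 against 2.55; limma adjusted p from 1.07e-09 to 2.4e-09). With combinations at 0 kept by adding a small constant, limma called 21. The other 7 promoters include that of the housekeeping gene *Ap1m1*. They also include *Fgf5*, whose log2 baseline varied most over replicates (SD 0.45). A boost index is a ratio within a library, and a low baseline and high boost indices of a library cannot be told apart here.

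Differences were smaller against *Sox2* and *Tbx3*, the promoters with the next lowest baselines. Against *Sox2*, the median difference over 56 enhancers was -0.14, -0.05 and -0.01 in replicates 1 to 3, and limma called 2 higher with *Lefty1* (3.57%) and 1 lower (1.79%). Nanog_E089 had 2.29 ± 0.36 with *Lefty1* and 0.71 ± 0.60 with *Sox2*, but its *Lefty1* value rests on 1 EC combination. Pou5f1_E082 had 1.60 ± 0.11 and 0.63 ± 0.49 (difference 0.97, adjusted p = 0.001 by limma). Sox2_E178, a fragment of the *Sox2* locus, was lower with *Lefty1*, at 0.79 ± 0.20 against 1.34 ± 0.21 (SD, n = 3). Without replicate 1 limma called 2 higher and 0 lower, and without replicate 2 or 3 it called 0 in either direction (without replicate 2, 3 higher and 4 lower at an unadjusted p under 0.05, and without replicate 3, 5 and 11). Against *Tbx3*, the median difference over 57 enhancers was -0.02, 0.08 and 0.38, and limma called 0 higher (0%) and 0 lower (0%), with 5 higher and 0 lower at an unadjusted p under 0.05 (lowest adjusted p 0.0241). The median SE of a difference was 0.17 in both contrasts, which limits the differences that could be detected. Every enhancer with a boost index of 4 or more with *Lefty1* was lower with both promoters. Against *Sox2* these differences ran from 0.02 (Nanog_E074) to 0.77 (Lefty1_E085). The group was chosen by its *Lefty1* values, and none of its differences was called.

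**Figure D5:**
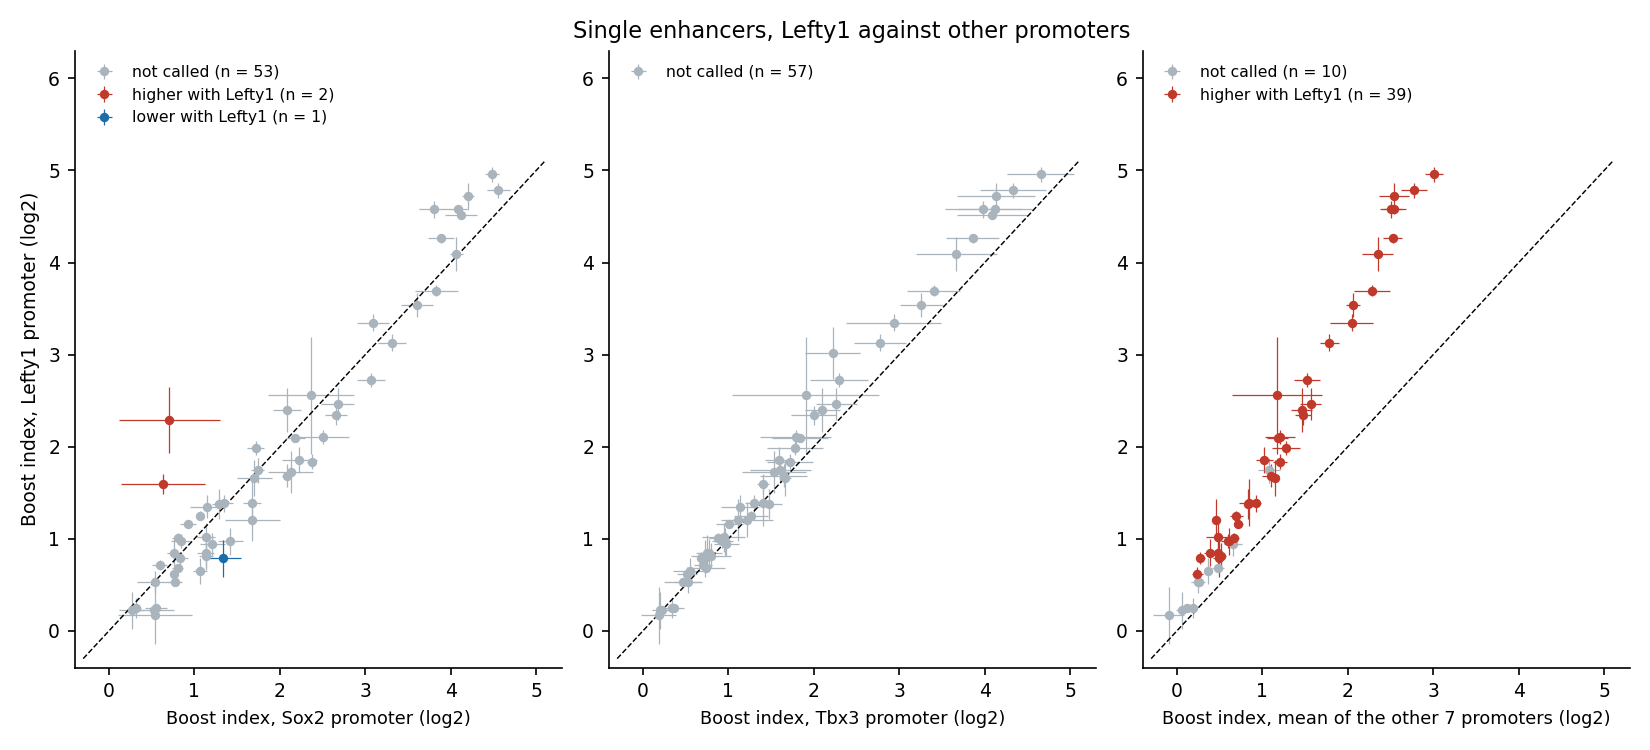
Boost index (log2) of single enhancers with the *Lefty1* promoter (vertical) against that with *Sox2*, *Tbx3* and the mean of the other 7 promoters (horizontal). Points are enhancers, error bars the SD over 3 biological replicates, the dashed line marks equal values and colours give the limma calls. Points lie near the line for *Sox2* and *Tbx3*, but every enhancer with a boost index of 4 or more with *Lefty1* lies above it. Against the mean of the other 7 promoters 39 of 49 were called higher with *Lefty1*, up to 2.18 above the line.

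Fragments of the *Lefty1* locus were not tested as a group for a preference for their own promoter. Their median difference between *Lefty1* and *Sox2* was 0.18, 0.13 and 0.20 in replicates 1 to 3 over 7 fragments, against -0.20, -0.10 and -0.04 over 49 fragments of other loci. Between *Lefty1* and *Tbx3* it was 0.12, 0.10 and 0.61, against -0.02, 0.08 and 0.37. The *Lefty1* fragments were higher in each replicate in both comparisons, and none of the 7 was called alone. Lefty1_E085 had 4.58 with *Lefty1*, 3.98 with *Tbx3*, 3.81 with *Sox2* and 0.76 with *Ap1m1*. Lefty1_E095 had 0.71 with *Lefty1* and between -0.36 (*Fgf5*) and 0.70 (*Tbx3*) with the others. *Lefty1* was not the highest for Lefty1_E096, with 1.38 against 1.48 with *Tbx3*, nor for Lefty1_E087, with 0.23 against 0.52 with *Sox2* and 0.25 with *Klf2*.

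Across EE combinations measured with all 8 promoters, the *Lefty1* boost index rose by 1.64, 1.61 and 1.66 log2 units in replicates 1 to 3 for each unit of the mean of the other 7 promoters (slope 1.64 ± 0.02, SD, n = 3, 6085 combinations). Slopes on single promoters used larger sets, from 7017 combinations for *Fgf5* to 9262 for *Ap1m1*. The slope was 1.09 ± 0.04 for *Sox2* and 1.05 ± 0.04 for *Tbx3*, 1.65 ± 0.08 for *Nanog*, 1.73 ± 0.13 for *Otx2* and 1.76 ± 0.07 for *Klf2* (SD, n = 3). It was below 1 on *Fgf5* (0.81 ± 0.08) and on *Ap1m1* (0.75 ± 0.30, with 0.60, 1.10 and 0.56 in replicates 1 to 3). The slopes are a description across combinations, which share fragments. Between the 5th and the 95th percentile, the combinations measured with all 8 promoters spanned 4.21 log2 units with *Lefty1*, 3.55 with *Sox2*, 3.82 with *Tbx3* and 4.54 with *Fgf5*. With *Ap1m1* they spanned 1.44, so the slope below 1 on this promoter does not mean a wider range than with *Lefty1*.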

How the data were processed

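Activities of the *Lefty1* library were measured by cDNA and pDNA barcode sequencing. The authors linked barcodes to fragments with Bowtie2 on a genome built from the fragments, divided counts by the sample total, and deposited the cDNA over pDNA ratio per combination and replicate, averaged over at least 5 barcodes with at least 8 pDNA counts each, with both sequencing runs of a replicate combined. Authors' columns of baselines, expected activities and boost indices were not used. The 34 CC, 35 EC and 3 EE combinations at 0 in any replicate cannot be put on a log2 scale and were omitted from tests of combinations. Baselines, boost indices and expectations were calculated per replicate with Python 3.11.15, numpy 2.4.6, pandas 2.3.3 and scipy 1.17.1.

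Tests across many features used limma 3.58.1 in R 4.3.3 over 3 replicates on all 8 libraries, with Benjamini-Hochberg adjustment at 0.01. The steps were tested on simulated data. Members, named features and lists were chosen with earlier results of these data known. Named were the fragments of the *Lefty1* locus, the 6 highest and lowest enhancers, the 3 largest called differences per direction, the 4 most extreme fragment pairs of each kind, and the 2 highest and lowest controls. Alternatives left out each replicate or changed averages, minimums, zeros, controls and tests.

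The contrasts between promoters were fitted without a replicate block, with the block as an alternative. Replicate numbers paired the samples for *Sox2* and *Tbx3*, since deviations of single-enhancer values from the library mean correlated above 0.1 for same-numbered replicates in all 3 pairs of each. Across the 7 other libraries the mean correlation was 0.47 for 21 same-numbered and -0.23 for 42 other pairs. Deviations from a mean over 3 replicates sum to 0, so the negative value largely follows from the positive one and adds no support of its own. No genome was used, so motifs within fragments were not analysed here.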

Additional observations from a re-analysis of the deposited data

Results flagged for a closer look

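A difference between promoters under the same contrast, tested by limma, put 6 results here. Nanog_E089 differed by 1.58 log2 units between *Lefty1* and *Sox2*, but its *Lefty1* value rests on 1 EC combination. Pou5f1_E082 differed by 0.97 with a replicate SD of 0.49 in the *Sox2* library, and Sox2_E178 by -0.55. The calls of these 3 enhancers were lost with at least 10 EC combinations per enhancer. Against the mean of the other 7 promoters, Sox2_E180 differed by 2.18, Lefty1_E085 by 2.07 and Nodal_E159 by 2.03.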

How the results depend on the processing

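The log2 baseline was -3.63 as a mean of log2 activities, -3.26 from random and -3.61 from shuffled controls alone, and every boost index shifts with it. The difference between pairs and single enhancers was 1.33 with means in place of medians and 1.61 with orientations averaged first. The additive expectation was nearer by 0.38 where both expectations differed by over 0.5. Without 1 replicate, 8 to 34 CC combinations were called, 0 combinations above or below additivity, 25 to 29 enhancers above it, 0 to 7 position and 0 to 0 orientation differences. Against *Sox2*, 0 to 2 enhancers were then higher and 0 lower. Control calls ran from 0 to 4.

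Without a variance trend, 3 EE and 45 EC combinations were called lower. Combinations above additivity numbered 2833 with *Lefty1* fitted alone and 2951 beyond 1 propagated SD. Those below numbered 617 with *Lefty1* alone, 406 with at least 10 EC combinations, 577 beyond 1 SD, 87 beyond 2 SD and 382 beyond 0.5 in each replicate. Enhancers below additivity were 2 with means over pairs and 1 with single-enhancer values by orientation, which was added once the data had been seen. With at least 10 EC combinations, 36 orientation differences were called, and 0 enhancers higher and 0 lower against *Sox2*. With zeros kept by a pseudocount, 21 enhancers exceeded the other 7 promoters and 0 were lower than with *Sox2*, as with means of log2 activities. The slope was 1.71 by total least squares and 1.68 for single enhancers. The same-locus difference was -0.016 without overlapping fragments and -0.035 with means. In EC combinations 14 controls were called. The causes were not tested.

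Position compared within orientation, also added once the data had been seen, gave 10 calls. With the replicate block, the calls against *Sox2* (3 of 3), *Tbx3* (0) and the other 7 promoters (39 of 39) were the same enhancers, and it changed no other call. Of the values and counts recomputed, 130 stayed near the reported ones, 51 moved and 0 turned direction. For the named enhancers 244 results kept their side of the threshold, 9 lost and 2 gained it. Depth is unknown, and 3 replicates limit each test.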

Other observations

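Nodal_E161 had no EC combination and so no single-enhancer value. It was in position 1 of 3 EE combinations with the *Lefty1* promoter, with boost indices of 3.10 ± 0.19 and 3.82 ± 0.20 beside Nodal_E158, which alone had 0.94, and 2.69 ± 0.86 beside Nodal_E162, which alone had 0.25 (SD, n = 3). In each of these 3 combinations all replicates lay above the single value of the partner. This is common, since 80.2% of EE combinations exceeded even the stronger single enhancer. Over all partners, EE combinations had medians of 2.31 for Nodal_E158 and 1.56 for Nodal_E162.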
